A study of Mus musculus with 9 samples.

Results

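The genes described here are 31 pan-neuronal and spiral ganglion neuron genes, chosen by name from a list and matched to Ensembl identifiers, out of 54232 genes counted in 9 bulk RNA libraries of the mouse cochlear duct. Each library was made from the microdissected ducts of both inner ears of a single embryo at E14.5, and 3 embryos each were wild type (WT), heterozygote or null for the Prdm16 cGT allele. cGT is a gene trap null allele of Prdm16, a transcriptional regulator of the Kölliker's organ epithelium, and it is carried in every cell of the animal, so a difference cannot be assigned to a single cell type of the duct. The paper describes the embryos of a genotype as littermates, and the WT and heterozygous embryos as littermate controls of the nulls. Which embryos shared a litter is not given in the sources used here. Each group held both sexes by Xist, the RNA of the inactive X chromosome, but not in balance. Xist was at 0.388 to 2.04 CPM (reads of a gene scaled to the library total) in WT embryo 1, heterozygote embryo 1 and null embryos 1 and 2. It was at 3176 to 3998 CPM in the other 5 libraries. The embryos of a group are separate animals, so the tests below measure the spread between animals. All 31 genes had at least 1 read in some library, and 22 passed the filter on low counts in all 3 comparisons.

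Spiral ganglion neurons are the bipolar cells that carry signals from the hair cells to the brainstem. They delaminate from the otic epithelium under the proneural factors Neurog1 and Neurod1, extend axons built from neuronal tubulins, microtubule-associated proteins and neurofilaments, and depend on the neurotrophin receptors Ntrk2 and Ntrk3. Their cell bodies lie outside the duct epithelium, and whether the RNA measured here came from neurons, from their fibres or from duct cells was not tested. In bulk RNA, fewer cells of a type and less RNA per cell cannot be told apart.

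The libraries held 24095322 to 30819118 counted reads, so that the floor of 3 reads used here equals 0.0969 to 0.126 CPM. Levels are given as CPM after trimmed mean (TMM) scaling over the 9 libraries, and as CPM per kb of exon where genes are compared with each other. Prdm16 itself had 225, 197 and 184 CPM in the WT embryos, 151, 123 and 141 CPM in heterozygous embryos and 23.7, 19.1 and 27.4 CPM in null embryos, which follows the labels. WT embryo 3 and null embryo 3 stood apart by some genes of differentiated hair cells, and WT embryos 1 and 2 and null embryo 3 by genes of mesenchyme and endothelium. The summed level of 10 mesenchyme genes was 496, 950 and 120 CPM in WT, 63.3 to 107 CPM in heterozygous embryos and 73.6, 43.8 and 1735 CPM in null embryos.

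The name of the gene group was checked against the levels of its defining genes, which were divided. Neurog1 had 0 reads in 8 libraries and 2 in null embryo 1. Neurod1 had 0 to 4 reads per library, and the stathmin Stmn3 had 0 to 10. Insm1, a factor of newly born neurons, had 0 to 9 reads, and the peripheral neurofilament protein Prph had 1 to 17. Snap25, a core protein of synaptic vesicle release, had 9 to 29 reads per library. These 6 genes had at most 29 reads in any library. Further members were low too, with 15 to 34 reads per library of Pou4f1, 9 to 25 of Elavl3 and 0 to 4 of Stmn4. Ina had 3 to 24 reads, Scn3a 0 to 33 and Chga 3 to 44. Other defining genes were well above the floor in every library, with 590 to 1145 reads of Ntrk3, 141 to 724 of Ntrk2, 447 to 1141 of Dcx, 1456 to 2204 of Map2 and 4182 to 8162 of Isl1. Tubb3, a tubulin of differentiating neurons, was present at 7.46 to 11.9 CPM. Since the levels did not settle the cell type, the set is called neuronal genes below.

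Most of the summed level of the set came from a pair of genes. Uchl1, a ubiquitin hydrolase abundant in neurons, and Isl1, a LIM homeodomain factor also found in the sensory epithelium of the duct, together made 65.6% of the summed WT CPM of the 31 genes. With the kinesin heavy chain Kif5c, the dendritic microtubule protein Map2 and doublecortin (Dcx) the share was 87.7%. Per kb of exon, Uchl1 reached 198.7 and Isl1 62.3 CPM in WT, followed by Kif5c at 11.6, Tubb3 at 4.63, Map2 at 4.54 and Dcx at 2.72. All other members lay at or below 2.38 CPM per kb. The sum over the 31 genes was 848 to 908 CPM in WT, 829.6 to 858 CPM in heterozygous embryos and 779 to 986 CPM in null embryos, with overlapping ranges. Without the 5 genes highest in WT, the sum was 102.5 to 109.2 CPM in WT, 90.01 to 96.47 CPM in heterozygous embryos and 82.35 to 132.2 CPM in null embryos, so that the heterozygotes lay below WT and the nulls spanned both.

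**Figure D1:**
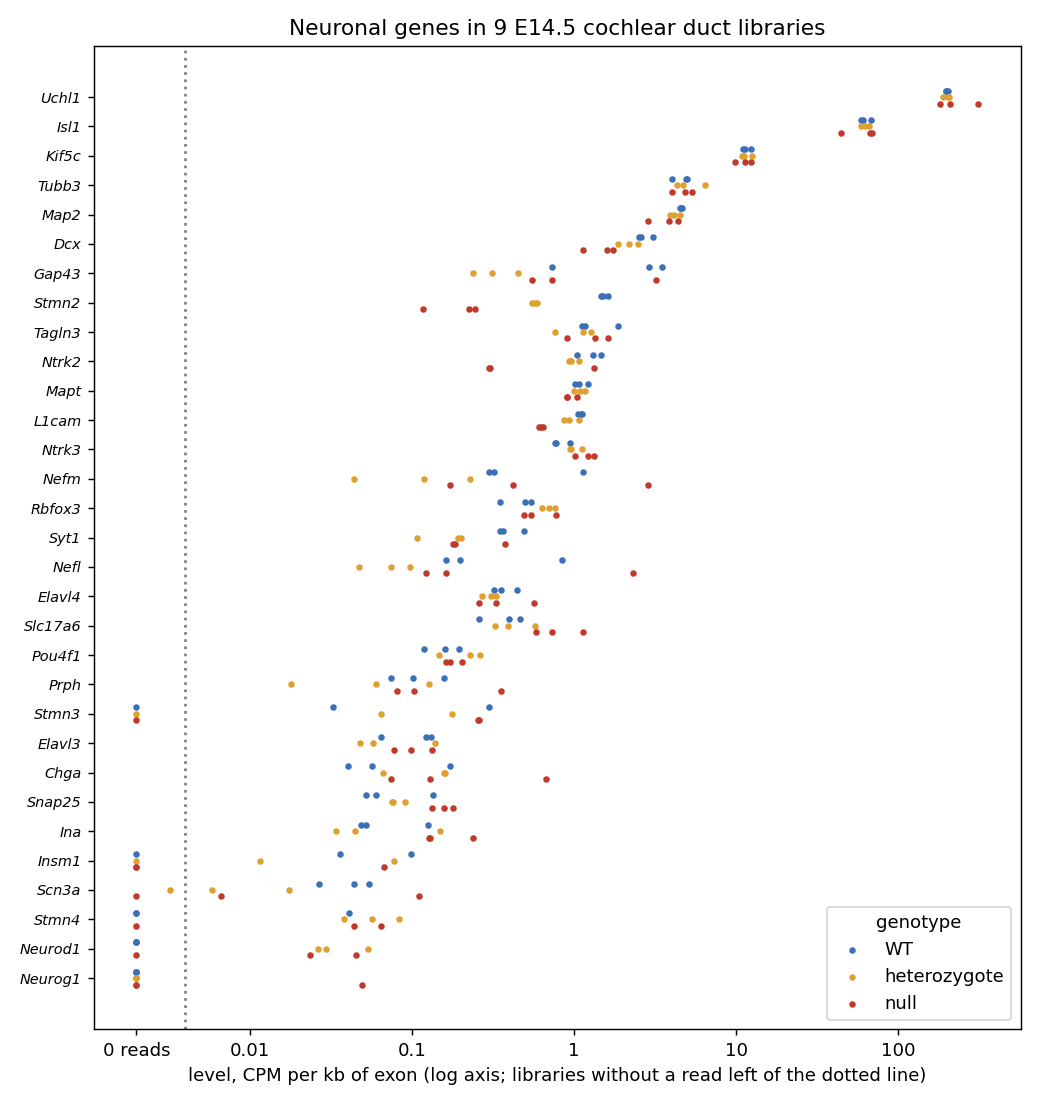
Level of each of the 31 neuronal genes in each of the 9 libraries, in CPM per kb of exon on a log axis, coloured by genotype, with libraries that had no read set left of the dotted line. Uchl1 and Isl1 lie far above the rest at 198.7 and 62.3 CPM per kb in WT, and Neurog1 is absent from 8 libraries.

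The first comparison asked which neuronal genes differed between null and WT ducts, with 3 embryos in each group. Of the 31 genes, 24 passed the filter, and 2 were lower in the nulls at an adjusted p below 0.05 and a log2 fold change beyond 0.5, namely Stmn2 and L1cam (edgeR quasi-likelihood test, Benjamini-Hochberg adjustment over all 17168 genes tested). Over all genes tested, 0.786% were called lower and 0.92% higher. None of the 24 genes was called higher by edgeR. At an unadjusted p below 0.05, 2 were higher and 3 lower, beside 6.48% and 5.76% of all genes. DESeq2 called Slc17a6 and Ntrk3 higher and Stmn2, Dcx and L1cam lower, beside 1.92% of all genes called higher and 1.64% called lower by DESeq2 among those it gave an adjusted p. The median log2 fold change of the 24 genes was -0.05, beside 0.01 for all genes.

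Stmn2 encodes stathmin 2 (SCG10), a tubulin-binding phosphoprotein of growth cones. The gene lies on chromosome 3 at 8509360 to 8561606 on the plus strand (mm10). It had 8.19, 9.14 and 8.45 CPM in the WT embryos, 3.09, 3.21 and 3.33 CPM in heterozygous embryos, and 0.661, 1.26 and 1.38 CPM in null embryos. The 3 genotypes did not overlap, and the order followed the number of cGT alleles. The null level was 12.8% and the heterozygote level 37.4% of the WT mean. In reads these levels were 221, 233 and 249 in WT against 16, 39 and 33 in the nulls, well above the floor.

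Stmn2 had a log2 fold change in null against WT of -2.96 ± 0.29 (standard error, n = 3 and 3, adjusted p = 0.00343 by edgeR). It remained past the threshold in each of the 6 fits that left out a library, with an adjusted p of 0.00259 to 0.0324. In heterozygote against WT it was -1.42 ± 0.14 (adjusted p = 0.0107 by edgeR), and this call was lost without heterozygote embryo 2 (adjusted p = 0.0924) and without heterozygote embryo 3 (adjusted p = 0.0911), with fold changes of -1.42 and -1.45. A joint fit of the 9 libraries lost it too (adjusted p = 0.196) and called 0 genes in this comparison. Null against heterozygote gave -1.54 ± 0.30 (adjusted p = 0.0878 by edgeR), short of the threshold.

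The other stathmins of the set had too few reads to compare. Stmn3 had 0.0371, 0 and 0.339 CPM in WT, 0.201, 0 and 0.0732 CPM in heterozygous embryos and 0, 0.291 and 0.293 CPM in null embryos. Stmn4 had 0, 0.0785 and 0 CPM in WT, 0.161, 0.108 and 0.0732 CPM in heterozygous embryos and 0.124, 0 and 0.0838 CPM in null embryos. Neither gene had more than 10 reads in any library, and a change in them was not detectable at this depth.

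L1cam, a cell adhesion molecule of growing and bundling axons, was lower in the nulls with little spread. It had 7.74, 8.12 and 8.28 CPM in WT, 7.91, 6.85 and 6.36 CPM in heterozygous embryos and 4.75, 4.49 and 4.61 CPM in null embryos. Every null embryo lay below every embryo of the other groups. Its change in null against WT was -0.81 on the log2 scale (standard error 0.15, adjusted p = 0.0455 by edgeR). The call was lost in all 6 fits that left out a library, with fold changes of -0.83 to -0.78 and an adjusted p of 0.0599 to 0.235 and no change of sign. With all libraries kept, it was also lost without the filter on low counts (adjusted p = 0.063, within 0.00141 to 0.17 over such settings). For L1cam the heterozygote against WT value was -0.19 ± 0.13 (adjusted p = 0.58 by edgeR).

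Dcx, a microtubule protein of migrating neurons, missed the threshold in the edgeR fit of the 6 libraries. It had 31.9, 32.5 and 38.7 CPM in WT, 23.5, 31.3 and 27.7 CPM in heterozygous embryos and 20.2, 14.4 and 22.0 CPM in null embryos. The 3 genotypes did not overlap, as for Stmn2. Null against WT gave a log2 fold change of -0.87 ± 0.17 (adjusted p = 0.0537 by edgeR) and passed under DESeq2 (adjusted p = 7.39e-05), in the edgeR fit of all 9 libraries (adjusted p = 0.0176) and without the filter on low counts (adjusted p = 0.00504), with a range of 7.39e-05 to 0.0778 over the other settings that used all libraries. Of the 6 fits of null against WT that left out a library, 1 passed, that without null embryo 3. Over these fits the adjusted p was 0.024 to 0.209 by edgeR. Heterozygote against WT gave -0.32 ± 0.12 (adjusted p = 0.26 by edgeR).

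Stmn2 and Dcx were the 2 of 25 members with every null below every heterozygote and every heterozygote below every WT embryo, an order that 0.742% of 17797 genes showed. No member showed the rising order, which 0.899% of genes did. Between null and WT alone, Stmn2, Dcx, Map2 and L1cam, 4 of 24, had every null below every WT embryo, beside 8.95% of all genes. Ina, Ntrk3 and Slc17a6, 3 of 24, had every null above every WT embryo, beside 10.1% of all genes. Dcx and L1cam were the 2 members on the X chromosome, where 1.41% of 566 genes tested were called lower and the median log2 fold change was 0.00. The nulls held more embryos with low Xist than WT did, and the part of sex in these values was not tested.

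**Figure D2:**
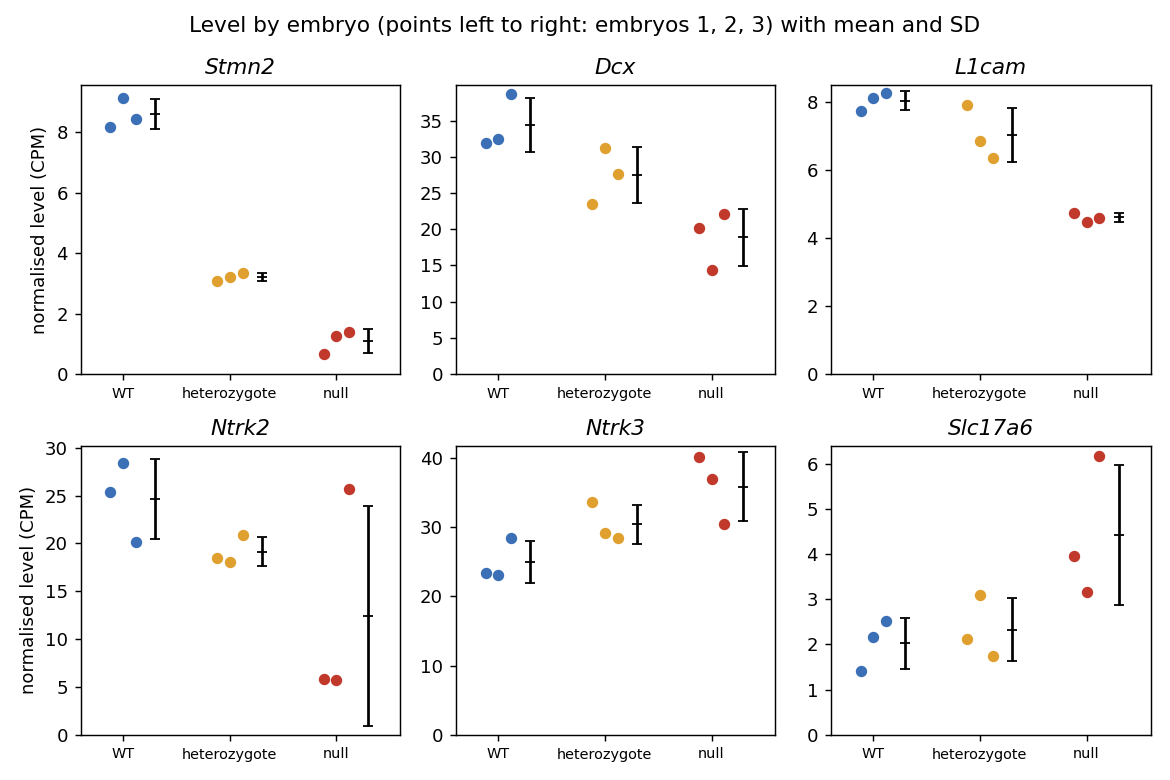
Normalised level in CPM of 6 neuronal genes in each embryo, by genotype, with the mean and SD of 3 embryos beside the points and axes that start at 0. Stmn2 falls in steps from 8.19 or more in WT to 1.38 or less in the nulls, L1cam is lower in the nulls than in WT, and Ntrk2 is split within the nulls.

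The promoters of Dcx, L1cam and Ntrk2 are shown because these genes had the most negative log2 fold changes in null against WT among the members with a promoter entry in RefSeq (GRCm38.p6, the mm10 coordinates). Each runs 5′ to 3′ on the gene's strand, from 250 bases before to 50 bases after the RefSeq start, with the motif found in capitals. RefSeq lists 2 promoters each for Dcx and L1cam, with starts 95 and 44 bases apart, and the first listed is shown. Both promoters of a gene hold the motif named for it. The L1cam start lies 15315 bases inside the gene as GENCODE annotates it. Dcx lies at chrX:143933170-143933469 on the minus strand and holds TATAAA, the letters of a core promoter motif. The distance of these letters from the start was not assessed. L1cam lies at chrX:73880741-73881040 on the minus strand and holds CAGATG, a form of the E-box that proneural factors bind. Ntrk2 lies at chr13:58806319-58806618 on the plus strand and holds CATCTG, the same E-box read on the other strand.
Dcx: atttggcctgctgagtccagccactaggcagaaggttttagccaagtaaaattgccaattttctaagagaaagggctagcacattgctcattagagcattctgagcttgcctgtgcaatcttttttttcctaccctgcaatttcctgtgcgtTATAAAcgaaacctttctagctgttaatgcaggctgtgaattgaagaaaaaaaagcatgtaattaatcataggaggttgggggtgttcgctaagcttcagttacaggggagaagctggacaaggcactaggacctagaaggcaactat
L1cam: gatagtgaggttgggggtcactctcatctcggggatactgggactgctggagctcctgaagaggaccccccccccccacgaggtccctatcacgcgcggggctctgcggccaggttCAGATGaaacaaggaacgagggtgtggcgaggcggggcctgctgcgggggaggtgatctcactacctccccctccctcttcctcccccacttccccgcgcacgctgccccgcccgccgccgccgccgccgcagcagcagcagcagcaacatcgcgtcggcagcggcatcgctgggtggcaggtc
Ntrk2: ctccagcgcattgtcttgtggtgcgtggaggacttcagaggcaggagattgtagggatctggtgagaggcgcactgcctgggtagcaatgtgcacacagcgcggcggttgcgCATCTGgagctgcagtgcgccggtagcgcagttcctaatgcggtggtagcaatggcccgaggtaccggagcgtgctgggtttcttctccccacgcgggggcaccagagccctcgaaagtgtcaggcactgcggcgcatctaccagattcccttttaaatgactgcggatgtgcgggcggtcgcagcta

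Promoters were listed for 21 members, 28 in all, and for 32851 over the genome. CAGATG or its complement CATCTG stood in 28.6% of the members' promoters and in 17.2% of all promoters. CAGCTG, an E-box equal to its own complement, stood in 28.6% and 16.3%, and TATAAA or TTTATA in 21.4% and 13.6%. The 8 members' promoters with CAGATG or CATCTG belonged to 5 genes, namely Elavl4, L1cam, Ntrk2, Slc17a6 and Stmn3. A match describes the letters alone and marks no bound site.

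The neurotrophin receptor genes Ntrk2 and Ntrk3 had log2 fold changes of opposite sign in null against WT, and neither passed the threshold by edgeR. Ntrk2 (TrkB), the receptor of brain-derived neurotrophic factor, had 25.4, 28.4 and 20.1 CPM in WT, 18.4, 18.1 and 20.9 CPM in heterozygous embryos and 5.82, 5.78 and 25.7 CPM in null embryos. The first and the second null embryo lay far below all others, and null embryo 3 lay within the WT range. Null against WT gave a log2 fold change of -0.998 ± 0.551 (adjusted p = 0.528 by edgeR). Without null embryo 3 it was -2.09 (adjusted p = 0.00215), while the other fits that left out a library gave an adjusted p of up to 0.849. Heterozygote against WT gave -0.37 ± 0.13 (adjusted p = 0.243 by edgeR). Null embryo 3 held the highest level of mesenchyme genes, 1735 CPM, and their part in its Ntrk2 level was not tested. It was also the only null embryo with high Xist (3176 CPM), and the part of sex was not tested.

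Ntrk3 (TrkC), the receptor of neurotrophin 3, had 23.4, 23.1 and 28.4 CPM in WT, 33.7, 29.1 and 28.5 CPM in heterozygous embryos and 40.2, 37.0 and 30.4 CPM in null embryos. Every null and every heterozygote lay above every WT embryo, though heterozygote embryo 3 did so by little. Its log2 fold change in null against WT was 0.52 ± 0.14 (adjusted p = 0.156 by edgeR and 0.021 by DESeq2, with up to 0.355 over the other settings that kept all libraries and 0.515 over fits that left out a library). In heterozygote against WT it was 0.28 ± 0.11 (adjusted p = 0.282 by edgeR). The sodium channel gene Scn3a had 0 to 33 reads per library and was tested in null against WT alone.

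Slc17a6 encodes the vesicular glutamate transporter VGLUT2. It had 1.41, 2.16 and 2.51 CPM in WT, 2.13, 3.10 and 1.76 CPM in heterozygous embryos and 3.96, 3.17 and 6.16 CPM in null embryos. All nulls lay above all embryos of the other genotypes. The log2 fold change in null against WT was 1.12 ± 0.33 (adjusted p = 0.2 by edgeR and 0.0451 by DESeq2, with up to 0.228 over the other settings that kept all libraries and 0.522 over fits that left out a library). Snap25, which acts at the same vesicles, gave 0.90 ± 0.43 (adjusted p = 0.455 by edgeR).

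The 3 neuronal genes with the highest levels were not called in any comparison. Isl1 had 240, 232 and 268 CPM in WT, 261, 248 and 234 CPM in heterozygous embryos and 273, 264 and 175 CPM in null embryos, with null embryo 3 the lowest. Kif5c had 78.8, 80.4 and 88.7 CPM in WT, 77.8, 89.4 and 79.3 CPM in heterozygous embryos and 87.8, 70.4 and 80.8 CPM in null embryos. Uchl1 had 322, 322 and 329 CPM in WT, 331, 309 and 334 CPM in heterozygous embryos and 339, 509 and 297 CPM in null embryos, with null embryo 2 the highest. The groups overlapped for all 3 genes. The log2 fold changes in null against WT were -0.06 ± 0.16 for Isl1, -0.06 ± 0.10 for Kif5c and 0.23 ± 0.18 for Uchl1, and an antisense gene shares 18.1% of the exon bases of Uchl1. Tubb3, the tubulin that the TUJ1 antibody marks, gave 0.02 ± 0.17, and the axonal protein tau (Mapt) gave -0.22 ± 0.16.

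**Figure D3:**
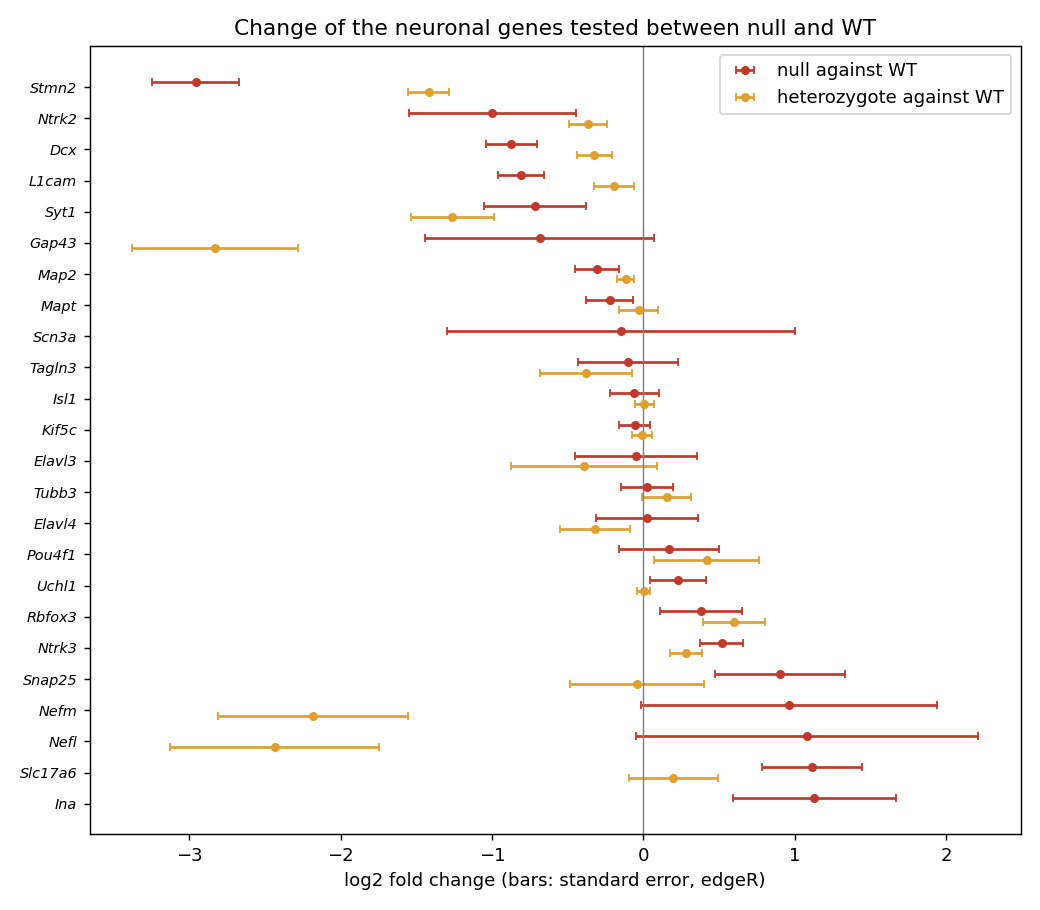
Log2 fold change with its standard error for the 24 neuronal genes tested between null and WT ducts, beside the heterozygote values of the same genes where tested. Stmn2 lies lowest in null against WT at -2.96, and Nefl, Nefm and Gap43 lie lowest in heterozygote against WT.

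The second comparison asked whether a single cGT allele changed these genes, in heterozygote against WT ducts. It shares its WT embryos with the first comparison. Of 23 genes tested, Stmn2 was called lower and none higher by edgeR, beside 0.0984% of 17269 genes called lower and 0.0521% called higher. By DESeq2, 4 were called lower, namely Nefl, Stmn2, Syt1 and Gap43, and none higher, beside 1.41% of all genes called lower and 0.313% called higher by DESeq2. At an unadjusted p below 0.05, 7 genes were lower and 2 higher, beside 7.33% and 5.8% of all genes. The median log2 fold change was -0.12, beside 0.00 for all genes. Markers of other cell types had negative log2 fold changes in the same comparison, 10 of 10 mesenchyme genes with a median of -2.75, 7 of 7 endothelial genes with -2.94 and 4 of 4 erythroid genes with -1.85, though edgeR called none, and their part in the members' values was not tested.

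Syt1, the calcium sensor of vesicle fusion, had 4.08, 3.06 and 2.92 CPM in WT, 1.69, 0.901 and 1.61 CPM in heterozygous embryos and 1.53, 1.49 and 3.14 CPM in null embryos. All heterozygotes lay below all WT embryos, and null embryo 3 lay within the WT range. The log2 fold change was -1.26 ± 0.27 in heterozygote against WT (adjusted p = 0.0796 by edgeR) and -0.72 ± 0.34 in null against WT (adjusted p = 0.455). Rbfox3 (NeuN), a splicing regulator of mature neurons, ran the other way with 2.89, 3.14 and 2.04 CPM in WT, 4.06, 3.71 and 4.43 CPM in heterozygous embryos and 2.85, 4.52 and 3.14 CPM in null embryos. The heterozygotes lay above all WT embryos and the nulls overlapped both groups. Its log2 fold change in heterozygote against WT was 0.60 ± 0.21 (adjusted p = 0.238 by edgeR).

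Gap43, a membrane protein of growth cones, was high in 3 libraries of 2 genotypes. It had 4.41, 5.34 and 1.12 CPM in WT, 0.683, 0.361 and 0.476 CPM in heterozygous embryos and 1.12, 0.84 and 4.86 CPM in null embryos. The 3 high values were those of WT embryos 1 and 2 and null embryo 3. In the same libraries 8 endothelial genes summed to 96.9, 80.8 and 60.3 CPM, beside 8.18 to 12 CPM in the other 6, and the mesenchyme genes were highest there too. The part of these cells in the Gap43 level was not tested. Gap43 had a log2 fold change of -2.83 ± 0.55 in heterozygote against WT (adjusted p = 0.0649 by edgeR) and -0.68 ± 0.76 in null against WT (adjusted p = 0.773). Without WT embryo 3 the first of these was -3.27 (adjusted p = 0.000105), and over the fits that left out a library its adjusted p reached 0.288.

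The neurofilament genes Nefl and Nefm, which encode the light and medium chains of the axonal skeleton, peaked in 2 libraries. Nefm had 1.85, 1.73 and 6.58 CPM in WT, 1.33, 0.685 and 0.256 CPM in heterozygous embryos and 0.991, 2.42 and 16.6 CPM in null embryos. Nefl had 0.667, 0.549 and 2.85 CPM in WT, 0.161, 0.252 and 0.329 CPM in heterozygous embryos and 0.413, 0.549 and 7.84 CPM in null embryos. WT embryo 3 and null embryo 3 were highest for both. These genes overlap on opposite strands and share 1108 exon bases, 32.8% of the exons of Nefl and 19.2% of those of Nefm, and the sources used here do not state how strand was counted, so their counts may not be independent.

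The same libraries were the highest for most, but not all, genes of the hair cell list. Otof, the hair cell protein otoferlin, had 412 reads in WT embryo 3 and 507 in null embryo 3, and 0 to 22 in the other 7. Lhx3, a hair cell factor, had 79 and 81 reads there and 0 to 10 elsewhere. Pou4f3, Gfi1, Myo6, Barhl1 and Chrna9 were also highest in both, but Atoh1, Jag2 and Myo7a did not set them apart. Atoh1 had 7.125 and 6.831 CPM there, beside 6.855 CPM in WT embryo 1. Jag2 had 73.42 and 59.81 CPM, beside 66.17 CPM in WT embryo 1. Myo7a had 18.73 CPM in WT embryo 3, beside 34.56 CPM in null embryo 1. The summed level of 10 hair cell genes was 262 and 298 CPM in these libraries and 159 to 213 CPM in the others. The part of hair cells in the neurofilament levels was not tested. The log2 fold change in null against WT was 1.08 ± 1.1 for Nefl and 0.96 ± 0.98 for Nefm, and without both libraries it was -0.33 (adjusted p = 0.874 by edgeR) and -0.06 (adjusted p = 0.979). In heterozygote against WT it was -2.44 ± 0.69 for Nefl (adjusted p = 0.154 by edgeR) and -2.18 ± 0.63 for Nefm (adjusted p = 0.157).

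Null embryo 3 held the highest level of 7 of 25 neuronal genes, 28% beside 16% of all genes. Over the 9 libraries, WT embryo 2 was highest for 5 of 25, 20% beside 9.17%, and WT embryo 3 for 2 of 25, 8% beside 8.12%. Within WT, embryo 3 was highest for 14 of 25, 56% beside 34% of all genes. Within the nulls, embryo 3 was highest for 14 of 25, 56% beside 31%. The sum of 10 glial genes, mostly Sox10 and Erbb3, was 1642 CPM in WT embryo 3 and 1480 CPM in null embryo 3, beside 1539 to 1761 CPM in the others.

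**Figure D4:**
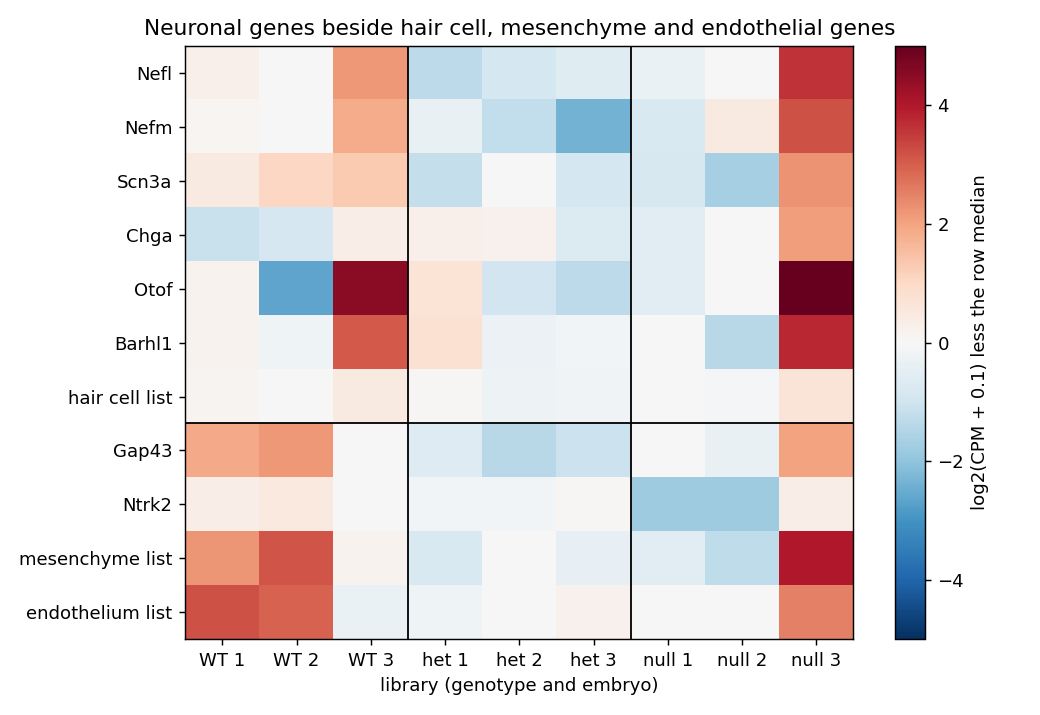
Level of neuronal genes and of genes and lists of hair cells, mesenchyme and endothelium in each library, as log2(CPM + 0.1) less the median of the 9 libraries, with colours ending at -5 and 5. Nefl and Nefm are high in WT 3 and null 3, as is Otof, and Gap43 is high in WT 1, WT 2 and null 3, as are the mesenchyme and endothelial lists.

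The third comparison set null against heterozygote ducts. None of the 24 genes tested was called in either direction by edgeR, beside 0.293% of 17067 genes called higher and 0.322% called lower. At an unadjusted p below 0.05, 5 were higher and 3 lower, beside 6.14% and 5.25% of all genes. DESeq2 called Gap43 higher and Stmn2 lower, beside 1.15% and 0.977% of all genes called so by DESeq2. The median log2 fold change was 0.23, beside 0.01 for all genes. The largest values belonged to Nefl at 3.53 ± 1.16 and Nefm at 3.15 ± 1.03, and without null embryo 3 these were 0.95 and 1.20. Without null embryo 3, Stmn2 at -1.71 (adjusted p = 0.0434 by edgeR) and Ntrk2 at -1.72 (adjusted p = 0.00058) were called lower.

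The members not yet described had low levels or small differences. Pou4f1, a POU factor of sensory neurons, the Hu RNA-binding protein genes Elavl3 and Elavl4, and Tagln3 and Map2 gave log2 fold changes of -0.30 to 0.17 in null against WT, and none had an unadjusted p below 0.05 in any comparison. Ina, an internexin, had 3 to 24 reads per library and shares 14.1% of its exon bases with Nt5c2, a highly counted gene on the other strand. Chga, a secretory granule protein, had 3 to 44 reads and was highest in null embryo 3. Neurog1, Neurod1, Insm1, Stmn3, Stmn4 and Prph entered no test.

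A further list of 44 neuronal genes outside the set, chosen with earlier results of these data known, was examined in the same way. In null against WT, 33 were tested and edgeR called 1 higher and 1 lower, beside 0.92% and 0.786% of all genes. Their median log2 fold change was -0.08, beside 0.01 for all genes. At an unadjusted p below 0.05, 1 was higher and 9 lower, beside 6.48% and 5.76% of all genes. Scn9a, the sodium channel Nav1.7 of peripheral sensory neurons, had 4.63, 4.86 and 2.99 CPM in WT, 1.65, 1.62 and 2.19 CPM in heterozygous embryos and 0.124, 0.323 and 0.629 CPM in null embryos. The genotypes did not overlap, in the same order as for Stmn2, with a log2 fold change of -3.53 ± 0.49 in null against WT (adjusted p = 0.0144 by edgeR). In null embryo 1 Scn9a had 3 reads, the floor used here. Rtn1, a reticulon of the endoplasmic reticulum, had 181, 183 and 205 CPM in WT, 239, 221 and 222 CPM in heterozygous embryos and 305, 306 and 261 CPM in null embryos. Its genotypes did not overlap either, in the rising order, with a log2 fold change of 0.61 ± 0.09 in null against WT (adjusted p = 0.0211 by edgeR). None of the 31 genes of the list tested in each of the other comparisons was called by edgeR. At an unadjusted p below 0.05, 2 were higher and 5 lower in heterozygote against WT, beside 5.8% and 7.33% of all genes, and 4 were higher and 2 lower in null against heterozygote, beside 6.14% and 5.25%.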

How the data were processed

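Bulk RNA was measured in 9 libraries of E14.5 cochlear ducts, 3 per genotype. The authors made TruSeq mRNA libraries and aligned single reads to mm10 with STAR, and the submitters' processing notes name cutadapt 1.13, HTSeq 0.6.1p1 and DESeq2. The deposited values are whole-number counts per Ensembl gene, without normalization. The strand setting and the annotation release of the counting are not given in the sources used here. Gene names, positions and exon lengths came from GENCODE M21.

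Genotypes were compared in pairs from these counts with edgeR 4.0.16 in R 4.3.3 (TMM scaling, filterByExpr with a minimum count of 10, quasi-likelihood test on 6 libraries, Benjamini-Hochberg adjustment over all genes tested, threshold 0.05 and absolute log2 fold change of 0.5). The standard error is the absolute log2 fold change over the square root of F. CPM values are scaled over all 9 libraries. On counts simulated for 17168 genes in null against WT, edgeR recovered 59 of 100 genes changed by a log2 fold of 1 and 88 of 100 changed by 2, with 19 false calls. The alternatives were DESeq2 1.42.0, RLE scaling, no filter, a mean count over 100, all 9 libraries in one fit, no fold threshold, a replicate block and leaving out each library. Leaving out the libraries high in hair cell or in mesenchyme genes was added after seeing the data. Values are given in every library for genes called in any comparison, for those with an unadjusted p below 0.05 against WT, for the gene with the highest WT level per kb in its role group, and for the stathmins. The neuronal genes and the marker lists were chosen with earlier results of these data known. RNA from other experiments of the study was not analysed here.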

Additional observations from a re-analysis of the deposited data

How the results depend on the processing

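For null against WT, Stmn2 was called lower under every alternative. The members called lower numbered 1 with the replicate block (Stmn2 alone, with L1cam at an adjusted p of 0.17), 4 without the libraries high in hair cell genes (WT embryo 3 and null embryo 3: Stmn2, Dcx, Gap43 and Ntrk2), 5 without those high in mesenchyme genes (WT embryos 1 and 2 and null embryo 3: Nefm, Nefl, Stmn2, Dcx and Ntrk2), and 1 to 3 over fits that left out 1 library, with 3 (Stmn2, Dcx and Ntrk2) without null embryo 3. Over all genes, those called lower numbered 135 of 17168 in the main comparison, 68 with the block, 560 of 17356 without the hair cell libraries, 180 of 18458 without the mesenchyme libraries and 232 without null embryo 3. Without the filter on low counts the number stayed at 2, with Dcx (adjusted p = 0.00504) called in place of L1cam (adjusted p = 0.063). In the mesenchyme alternative the single WT embryo left is embryo 3, which had the highest Nefl and Nefm of the WT embryos. It is assumed to vary like the others. Members called higher numbered 2 with DESeq2, 1 (Ntrk3) without the hair cell libraries, and 0 to 1 over fits that left out 1 library, with Ntrk3 called without null embryo 3.

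In heterozygote against WT, members called lower numbered 4 with DESeq2, 5 without the filter, 0 with all 9 libraries in one fit (which called 0 genes of any kind, and gave Stmn2 an adjusted p of 0.196), 3 with the replicate block (Stmn2, Syt1 and Gap43), 3 without the mesenchyme libraries, and 0 to 3 over fits that left out 1 library. There were 3 without WT embryo 3, and 0 without heterozygote embryo 2 or without heterozygote embryo 3. Over all genes, 17 of 17269 were called lower in the main comparison, 243 by DESeq2, 575 of 32010 without the filter, 165 with the block, 49 of 18666 without the mesenchyme libraries and 458 of 17685 without WT embryo 3. In null against heterozygote, DESeq2 called 1 higher and 1 lower, the fit without the filter 3 higher and 1 lower, the fit of all 9 libraries 1 lower (Stmn2), and fits that left out 1 library 0 to 2 lower, with 195 higher and 166 lower over all genes by DESeq2, 227 and 139 of 31930 without the filter, 85 lower in the fit of all 9 libraries and 101 lower without null embryo 3, where the 2 were called.

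Signs changed for 4 log2 fold changes that had not passed. In null against WT, Nefl was -0.33 and Nefm -0.058 without the hair cell libraries, -2.54 and -1.92 without the mesenchyme libraries, and -1.49 to 2.25 and -0.98 to 1.90 over fits that left out 1 library. In heterozygote against WT, Snap25 was 0.038 with the replicate block and -0.28 to 0.52 over fits that left out 1 library, and Slc17a6 was -0.11 without the mesenchyme libraries and -0.065 to 0.389 over such fits. Of the other fold changes refitted under the alternatives for the genes tested in this way, 384 stayed on the same side of an adjusted p of 0.05, 39 came below it and 13 rose above it, counted whether or not the log2 fold change was beyond 0.5. The causes were not tested.

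Embryos of different genotypes share the numbers 1 to 3, but the deviations of same-numbered embryos correlated between -0.31 and 0.33, so the numbers were not taken as pairs. Members with fewer than 10 reads per library allow no comparison at this depth, and 3 embryos per genotype limit all calls.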

Other observations

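Several genes of the further neuronal list, singled out here after their values were seen, were highest in the libraries high in hair cell genes. Srrm4, a splicing regulator of neurons that hair cells also need, had 1.74, 1.26 and 3.73 CPM in WT, 1.61, 0.901 and 1.10 CPM in heterozygous embryos and 1.40, 1.65 and 5.45 CPM in null embryos. Nhlh1, a helix-loop-helix factor of young neurons, reached 1.53 CPM in WT embryo 3 and 2.05 CPM in null embryo 3, and the other libraries had 0.0721 to 0.522 CPM. Calretinin (Calb2) reached 0.984 and 1.43 CPM in the same libraries, and the others had 0.0803 to 0.235 CPM.

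The ubiquitous stathmin Stmn1, also chosen after its values were seen, had 16.2, 18.5 and 12.4 CPM in WT, 11.7, 14.5 and 14.3 CPM in heterozygous embryos and 11.6, 10.8 and 12.2 CPM in null embryos. Its log2 fold change in null against WT was -0.45 ± 0.17 (adjusted p = 0.323 by edgeR), and every null embryo lay below every WT embryo.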
